A study of Homo sapiens with 6 samples.

Results

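Among the RNAs measured in NCI-H1299 cells, 3 genes from the ribosomal DNA of chromosome 21 held 18.2% of all counts, out of 25287 genes in the authors' deposited table. They are ENSG00000280441, ENSG00000278996 and ENSG00000281383, named in the table only by their Ensembl IDs, and all 3 have a row there. They were chosen by their position in the ribosomal DNA and by their mean normalized count in this same table, so their abundance is given as a description with no test. NCI-H1299 is an established line of human lung carcinoma cells, given as lung adenocarcinoma in the labels. RNA was sequenced from 3 libraries with a short hairpin RNA against ALDH18A1 (shALDH18A1) and 3 with a control hairpin (shControl, named puro in the design text). All were grown in RPMI1640 with fetal bovine serum. The labels give the molecule as total RNA, but their protocols name the preparation RIP-seq, and this conflict is not resolved here. ALDH18A1 encodes P5CS, an enzyme of proline synthesis that the series title presents as an RNA-binding regulator of translation. Neither the number of hairpin sequences nor whether each library had its own culture is stated in the sources used here, so p-values measure only the spread between these libraries, which may be technical.

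Ribosomal RNA makes up most of the RNA of a growing cell. RNA polymerase I transcribes tandem ribosomal DNA repeats, which lie on the short arms of the acrocentric chromosomes, into a 45S precursor. Spacers are cut away from this precursor to leave the 18S rRNA of the small ribosomal subunit and the 5.8S and 28S rRNAs of the large one. Library protocols usually deplete these RNAs or select polyadenylated RNA, and neither step is stated in the sources used here. The genes described here are long noncoding RNA annotations laid over the repeats, and no function is assigned to them here.

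The values are those of 1 comparison as the authors deposited it, with a single mean normalized count over the libraries for each gene, beside its log2 fold change and the standard error (SE) of that change. No value per library was analysed here. The depth of each library is therefore unknown. The header does not say which group is the numerator, and ALDH18A1 itself does not show it: in the authors' deposited table its log2 fold change was -0.08 (SE 0.07, adjusted p by DESeq2 = 0.471). Genes below 0 are said to lie on the negative side and genes above 0 on the positive side, and neither side is assigned to a group. The mean normalized counts add up to 43175646. Of the epithelial markers, KRT8 (18965) and KRT18 (14244) were abundant by mean normalized count in the authors' deposited table, while EPCAM (41.4), CDH1 (24.2) and KRT19 (5.77) lay below its median of 63.7. Of 4 lung lineage markers looked for by name, only SFTPB was matched to a row, and it stood at 4.49. Of the blood markers, PTPRC had 12.8 and the haemoglobin genes HBB, HBA2 and HBA1 had 5.78, 3.26 and 3.09 in the authors' deposited table, while the mesenchymal markers VIM (24591), CDH2 (3947) and FN1 (3122) were abundant.

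ENSG00000280441 and ENSG00000278996 are sister annotations on 2 different repeats. In GENCODE release 29 on GRCh38, ENSG00000280441 (FP236383.1) covers chr21:8380665-8410645 and ENSG00000278996 (FP671120.1) covers chr21:8197620-8227646, both on the plus strand and with 7 exons each. Each span holds a complete rRNA precursor of the RefSeq annotation: RNA45SN3 in the first, RNA45SN2 in the second. The exons themselves overlap 0 bases of these precursors, because they lie in the spacer on either side. The spliced transcripts of the 2 genes, 2498 bases each, are identical at all 2498 positions. The sequence of exon 5, the shortest, is shown because it is the same in both genes (chr21:8407346-8407437 and chr21:8224347-8224438, plus strand, GRCh38):
Exon 5 of ENSG00000280441 and ENSG00000278996: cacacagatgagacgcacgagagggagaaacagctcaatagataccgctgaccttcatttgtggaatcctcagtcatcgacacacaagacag
No stretch of 50 bases in either transcript is private to it. A read that lies within the spliced transcript cannot be assigned to 1 of the 2 genes by its sequence.

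ENSG00000281383 (FP671120.4, chr21:8254592-8255514, minus strand, GRCh38) is a single exon of 923 bases. It lies entirely inside RNA18SP5, which RefSeq lists as an 18S rRNA pseudogene at chr21:8253842-8255704, on the strand opposite to the 5.8S copy of the same repeat. Without a stranded count, reads from an 18S sequence and from this antisense gene cannot be told apart, and whether strand was used is not given. The annotation has 3 further copies of the gene, ENSG00000280800, ENSG00000280614 and ENSG00000281181, which are identical to each other and are not analysed here. ENSG00000281383 matches each of them at 920 of 923 bases. The differences fall in 2 short stretches, shown because they are the only bases by which a read could tell ENSG00000281383 from the other copies (plus or minus 20 bases, written along the minus strand, GRCh38, bases that differ in capitals). In the first, at chr21:8255388-8255432, the substitutions relative to the other copies are G103C and G105A, counted from 1 at the 5′ end of the ENSG00000281383 transcript, and a T is missing:
ENSG00000281383: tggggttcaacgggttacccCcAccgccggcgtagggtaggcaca
ENSG00000280800, chr21:8211179-8211224: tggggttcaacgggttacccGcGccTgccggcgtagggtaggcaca
In the second, at chr21:8255256-8255296, ENSG00000281383 has 1 more G:
ENSG00000281383: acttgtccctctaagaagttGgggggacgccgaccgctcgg
ENSG00000280800, chr21:8211048-8211087: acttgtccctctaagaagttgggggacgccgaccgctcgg
Of the 874 stretches of 50 bases in ENSG00000281383, 99 occur in no other GENCODE transcript, and 775 recur in each of the 3 copies.

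**Figure D1:**
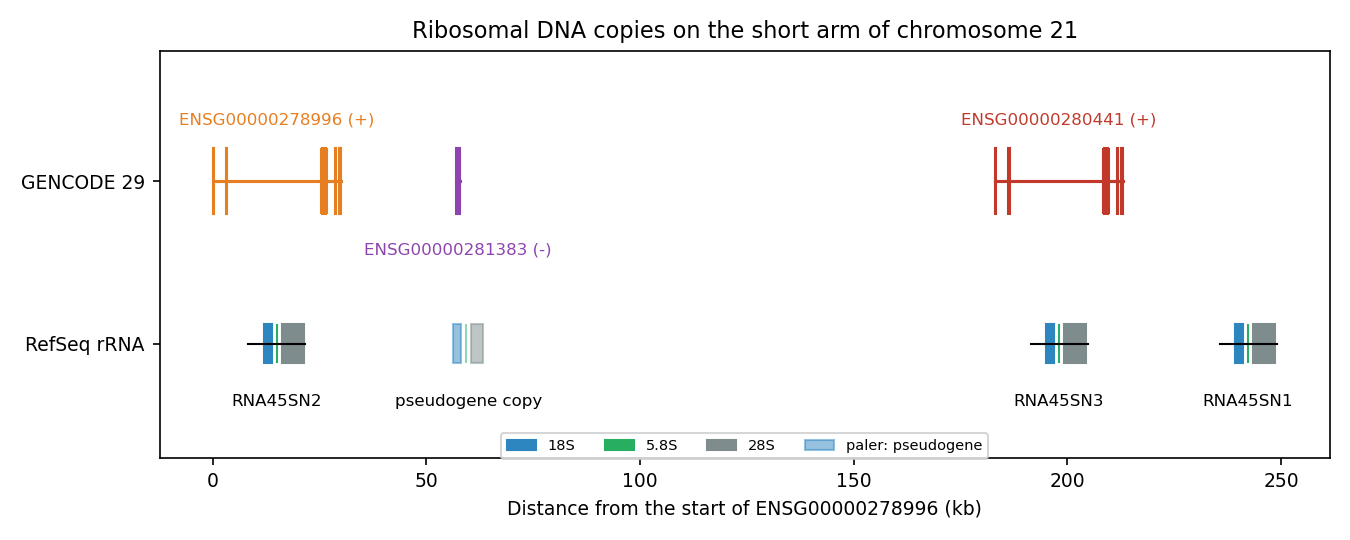
Map of the ribosomal DNA copies, with distance in kb from the start of ENSG00000278996 on the horizontal axis. The upper row shows the 3 genes with their exons as boxes and their strand, and the lower row the RefSeq rRNA annotations; the exons of ENSG00000280441 and ENSG00000278996 flank the precursors RNA45SN3 and RNA45SN2, and ENSG00000281383 sits on the 18S pseudogene copy.

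ENSG00000280441 was the most abundant gene of the authors' deposited table. Its mean normalized count was 4834458, which is 11.2% of the summed counts. ENSG00000278996 came second with 2340518 (5.42%), and ENSG00000281383 ranked 5 with 665919 (1.54%). The ranks between and after them belonged to the mitochondrial genome: the oxidase subunit gene MT-CO1 with 1436217 and MT-ND4 with 757416 ranked 3 and 4, followed after ENSG00000281383 by the mitochondrial rRNA MT-RNR2 with 653467, MT-CO3 with 486211 and MT-ND1 with 408929. The 10 most abundant genes were these 3 and 7 genes of the mitochondrial genome, and they held 28.7% of the counts. ENSG00000280441 had 3.37 times the count of MT-CO1 and, summed from the bottom of the table, as many counts as the 21182 least abundant genes together (83.8% of all genes).

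**Figure D2:**
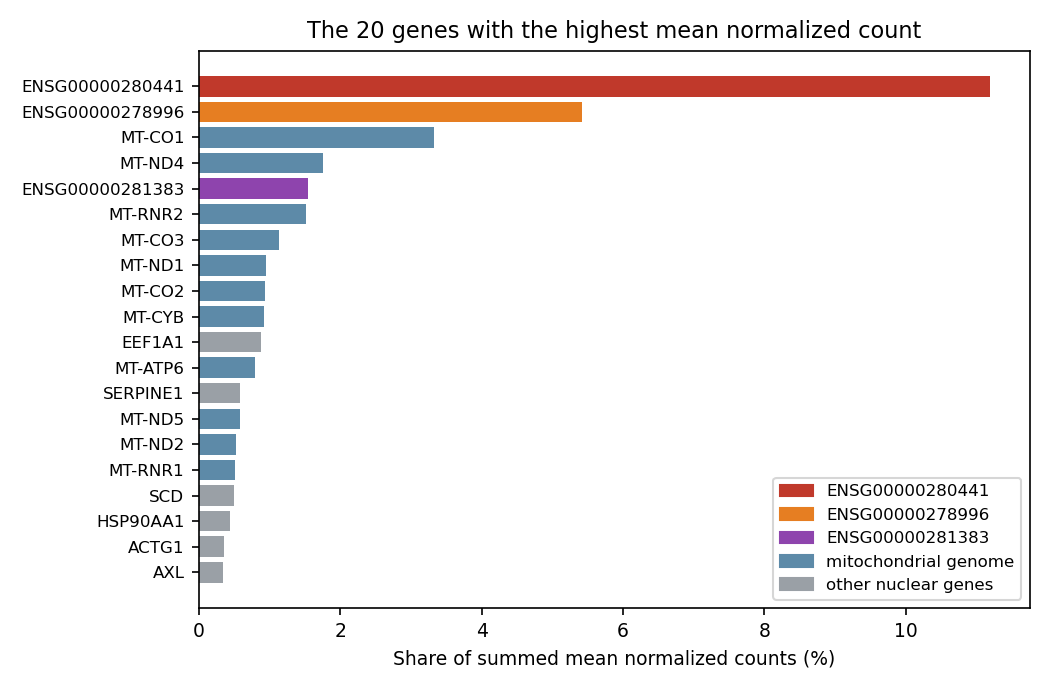
Share of the summed mean normalized counts, in percent, for each of the 20 most abundant genes, from the highest at the top. ENSG00000280441 (11.2%) and ENSG00000278996 (5.42%) stand above every mitochondrial gene, and ENSG00000281383 (1.54%) lies between MT-ND4 and MT-RNR2.

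The identical transcripts did not have equal counts. ENSG00000280441 had 2.07 times the mean normalized count of ENSG00000278996, and this ratio does not depend on length, since both have 2498 exon bases. Per kb of GENCODE exon, the mean normalized counts were 1935332 for ENSG00000280441, 936957 for ENSG00000278996 and 721472 for ENSG00000281383. Per kb of the whole span, the order turned, with 161251, 77947 and 721472 for the same genes. Whether exons or spans were counted, which annotation release was used and how reads with several matches were treated is not stated in the sources used here. GENCODE places 10 further genes inside the spans of ENSG00000280441 and ENSG00000278996, among them microRNA and rRNA copies. By Ensembl ID or by a name that no other gene shares, 0 of these 10 could be matched to a row. A row whose symbol several IDs share, such as 5_8S_rRNA, could not be matched this way and may hold counts of such copies.

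The share of these 3 genes sets what a share of the total, such as CPM (counts scaled to a common total per library), means in these libraries. Without them, the summed counts fall to 81.8% of the total, and every other gene's CPM, computed here from the deposited means, is 1.22 times as large (0.29 on the log2 scale). The elongation factor gene EEF1A1, the most abundant nuclear gene of the table other than the 3, reads 8743 CPM with them and 10683 CPM without. ALDH18A1 reads 61.6 CPM with them and 75.3 CPM without. This factor is the same for all genes in the mean over libraries, so it changes levels and not their order. A ratio of CPM between groups is touched only as far as the share differs between them.

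The share was lower on the positive side, by the counts that the deposited means and fold changes imply when both groups are taken to hold equal numbers of libraries. These shares are a description, and no test was made of their difference. Together the 3 genes made up 15.5% of counts on the positive and 21.1% on the negative side. For ENSG00000280441 the shares were 9.60% on the positive and 12.9% on the negative side, and for ENSG00000278996 they were 4.64% on the positive and 6.27% on the negative side. For ENSG00000281383 they were 1.23% on the positive and 1.89% on the negative side. Within the 95% interval of its fold change alone, the share of ENSG00000280441 ran between 8.68% and 10.5% on the positive side, and at both ends its share on the negative side was the higher one. The ratio of ENSG00000280441 to ENSG00000278996 was 2.07 on the positive and 2.06 on the negative side. The 37 genes of the mitochondrial genome went the other way, with 18.1% of counts on the positive and 8.14% on the negative side. In bulk RNA, less of an RNA per cell and fewer cells that make it cannot be told apart.

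**Figure D3:**
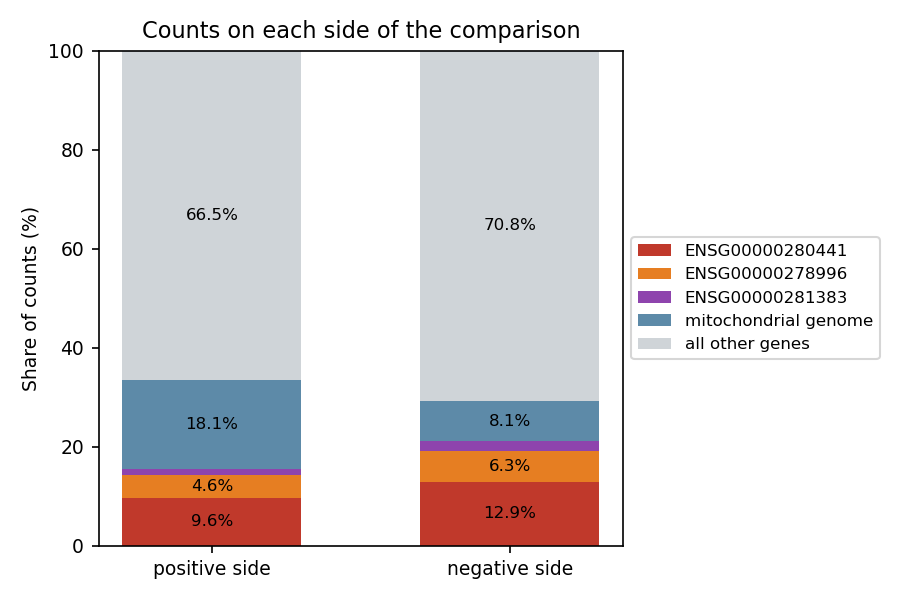
Share of counts in percent on the positive side (left) and the negative side (right) of the comparison, as implied by the deposited means and fold changes. The 3 ribosomal DNA genes add up to 15.5% on the positive and 21.1% on the negative side, and the mitochondrial genome to 18.1% on the positive and 8.14% on the negative side.

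All 3 genes lay on the negative side, and 1 of them passed the threshold of an adjusted p under 0.05. In the authors' deposited table, ENSG00000281383 stood at -0.50 on the log2 scale (SE 0.06, 95% interval -0.63 to -0.38, adjusted p by DESeq2 = 5.36e-14), or 0.706-fold. In the authors' deposited table, ENSG00000280441 stood at -0.31 (SE 0.14, -0.59 to -0.04, adjusted p by DESeq2 = 0.062) and ENSG00000278996 at -0.32 (SE 0.14, -0.60 to -0.03, adjusted p by DESeq2 = 0.0634). Their intervals, which are not adjusted for the number of genes, end just below 0. Over all genes, 20.9% passed on the positive and 21.5% on the negative side (42.4% in all). Of the 197 other genes among the 200 most abundant, 176 passed (89.3%). With only 3 genes, the number called is not read as a result against either share. At their SEs, the smallest absolute values that would have passed are 0.32 for ENSG00000280441 and 0.33 for ENSG00000278996, just above those observed. The fold changes of these 2 genes differ by less than 0.01, which is far inside either SE, but genes with identical exons can share reads and are not separate evidence.

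The SEs of these 2 genes were large for genes of their abundance. Among the 200 most abundant genes, the 197 others had a median SE of 0.06 on the log2 scale, with a range of 0.05 to 0.16. ENSG00000280441 stood at 2.36 times that median and ENSG00000278996 at 2.40 times. Only MT-CO2 and the ribosomal protein gene RPL41, out of the 197, had a larger SE than ENSG00000280441. If counting noise is negligible and each group has 3 libraries, an SE can be written as a coefficient of variation within groups. It is 11.9% for ENSG00000280441 and 12.2% for ENSG00000278996, against 5.07% at the median of the others. These percentages restate the SE of the DESeq2 model and are not an observed spread of the libraries. ENSG00000281383, at 5.50%, was close to that median, and 55 of the 197 had a larger SE. Of the 46 others with a smaller absolute fold change than ENSG00000280441, 25 still passed the threshold. The values of single libraries, which would show whether 1 of them drives this spread, were not analysed here.

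**Figure D4:**
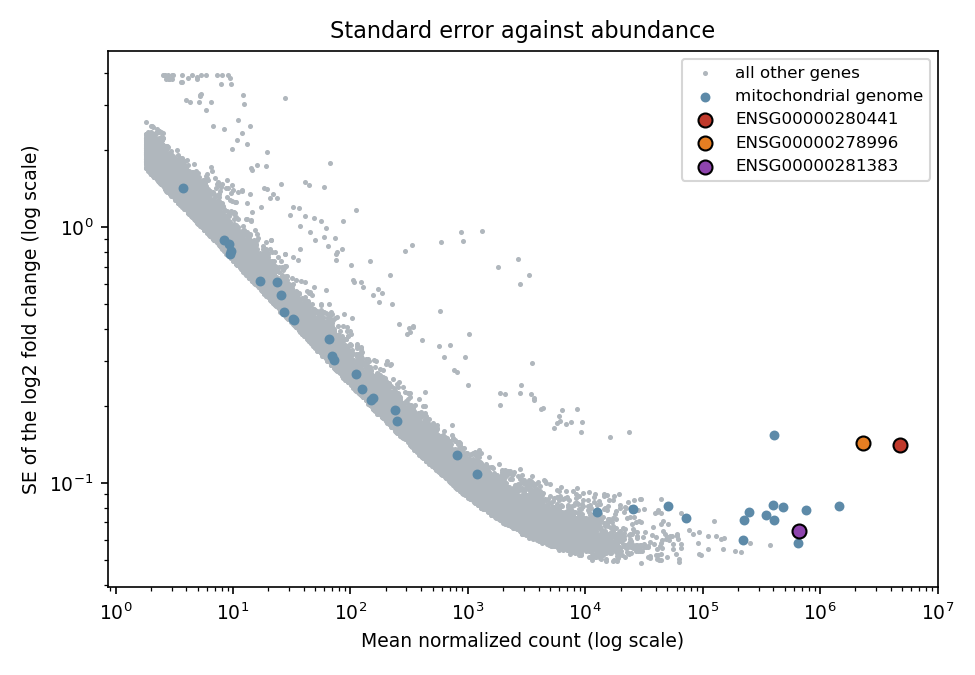
SE of the log2 fold change against the mean normalized count, both on log axes, with 1 point per gene. ENSG00000280441 and ENSG00000278996 lie at an SE of 0.14 at the far right, above the level of 0.06 that is usual for abundant genes, while ENSG00000281383 lies near that level.

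How the 2 groups are scaled against each other decided the calls of the 2 most abundant genes. The positive side holds more counts in total, so setting both totals equal moved every log2 fold change by -0.12. ENSG00000280441 then had -0.43 (adjusted p = 0.00634, DESeq2 SE) and ENSG00000278996 -0.43 (adjusted p = 0.0069), and both passed. Equal totals over all genes except these 3 moved fold changes by -0.22, to -0.53 for both, with adjusted p-values of 0.000539 for ENSG00000280441 and 0.000631 for ENSG00000278996. With the mitochondrial genome left out as well, the shift was only -0.03, and their values of -0.34 passed narrowly (adjusted p = 0.0383 and 0.0396 for the same 2 genes). The ribosomal DNA genes and the mitochondrial genome thus pull a total in opposite directions. Setting the median of genes whose mean count reaches 100 to 0 moved the fold changes the other way, by 0.07, and neither gene passed (adjusted p = 0.167 for each). ENSG00000281383 passed on the negative side under all 4 of these scalings, between -0.72 and -0.43.

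The same shifts touch the rest of the table. As deposited, 5283 genes passed on the positive and 5435 on the negative side. With equal totals over all genes except the 3, the split was 4043 on the positive and 7030 on the negative side. With all genes in the totals it was 4580 on the positive and 6313 on the negative side. Leaving the mitochondrial genome out of the totals along with the 3 genes gave 5109 on the positive and 5644 on the negative side, near the deposited split. With the median of genes whose mean count reaches 100 set to 0, the majority turned, with 5734 on the positive and 4928 on the negative side.

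**Figure D5:**
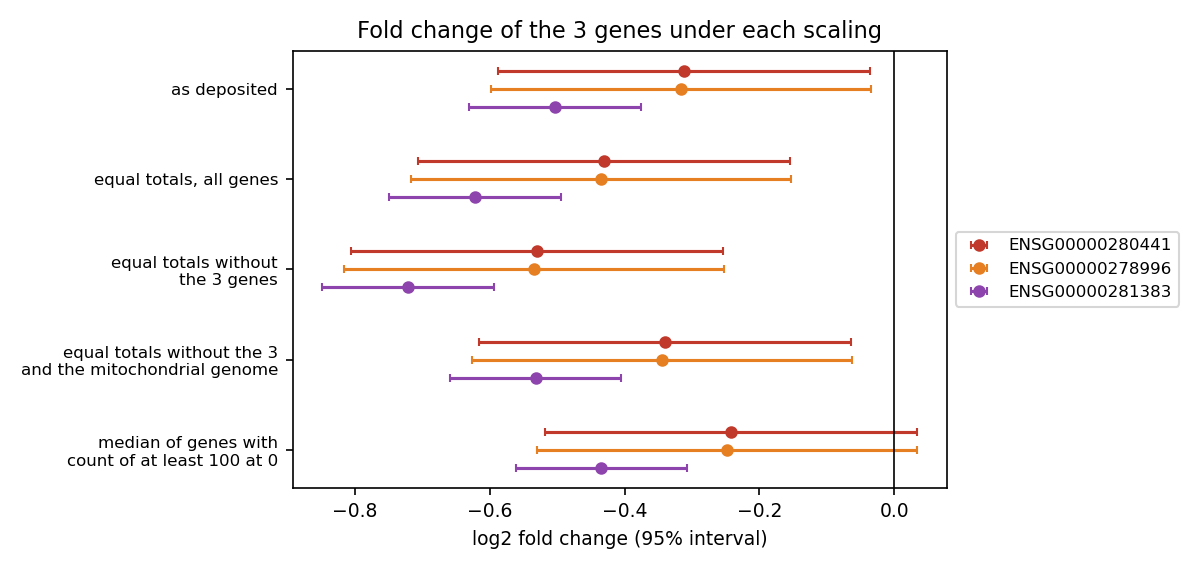
Log2 fold change with its 95% interval (horizontal axis) for the 3 genes under 5 scalings (rows). ENSG00000281383 stays below 0 in each row, while the intervals of ENSG00000280441 and ENSG00000278996 reach past 0 when the median of genes whose mean count reaches 100 is set to 0.

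The rows named for nuclear 5.8S and 5S rRNA were far less abundant than these 3 genes, and none passed as deposited. No row named for the 18S or 28S rRNA or their precursor was found, so the level of those RNAs is not known here. The row 5_8S_rRNA of the authors' deposited table had a mean normalized count of 1067 and stood at -0.22 on the log2 scale (SE 0.12, adjusted p by DESeq2 = 0.142). Its symbol is shared by 6 Ensembl IDs, so no place in the genome is assigned to it here. The 17 copies of the 5S rRNA gene, which RNA polymerase III transcribes elsewhere in the genome, had mean normalized counts of 29.5 to 157. Their log2 fold changes ran from 0.39 to 0.56 in the authors' deposited table and 0 of the 17 passed by DESeq2, with 12 at an unadjusted p under 0.05. When the median was set to 0, 12 passed on the positive side. RNA5S1, RNA5S2 and others, 11 rows in all, carried the same values to the last digit (mean normalized count 145). The 17 rows hold only 6 distinct mean counts, so the 12 rows are not 12 separate results. The pseudogenes RNA5-8SP6 (17.4) and RNA5-8SP2 (2.95) were scarce. The mitochondrial rRNAs MT-RNR1 (0.36, SE 0.06, adjusted p by DESeq2 = 7.78e-09) and MT-RNR2 (0.26, SE 0.06, adjusted p by DESeq2 = 3.42e-05) were positive in the authors' deposited table.

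Elsewhere on the short arm of chromosome 21, counts were small. GENCODE annotates 123 other genes there, below 12 Mb, and the 55 with a row analysed here summed to 25190 counts, so the 3 ribosomal DNA genes held 311 times as many. Of the 55, 19 were positive and 8 negative past the threshold, and 28 did not pass. Over all genes, 20.9% passed on the positive and 21.5% on the negative side. The median log2 fold change of the 55 by the authors' deposited table was 0.97, against 0.03 over all genes. That median includes scarce genes, since mean normalized counts ran from 1.85 to 2723. Some rows had close values, such as ENSG00000274333 (mean normalized count 1352, log2 fold change 0.79) and ENSG00000275496 (1280, 0.71). Whether such rows share reads was not tested, so the 55 may not be separate results. MIR3648-2 (chr21:8986999-8987178, plus strand, GRCh38) is of interest because its 180 bases are identical to MIR3648-1, which lies inside RNA45SN2 ahead of the 18S rRNA (chr21:8208473-8208652). As read from the authors' deposited table, MIR3648-2 had a mean normalized count of 261 and stood at 2.18 on the log2 scale (SE 0.18, adjusted p by DESeq2 = 5.55e-33). Its neighbour ENSG00000264063, annotated as MIR3687-2 (chr21:8987370-8987430), had a mean normalized count of 24.7 in the authors' deposited table and stood at 2.22 (SE 0.55, adjusted p by DESeq2 = 0.000218). Both thus passed on the side opposite to the 3 genes, and did so under all 4 scalings. The counts of MIR3648-2 belong to the whole annotation of 180 bases, whose sequence MIR3648-1 shares. Whether they come from the mature microRNA or from longer RNA was not tested. For reference only, the annotated mature product is shown with its seed (bases 2 to 8) in capitals, from RefSeq on GRCh38.p14:
hsa-miR-3648, chr21:8987026-8987046, plus strand: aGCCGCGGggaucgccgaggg
MIR6724-2, at 7.77 counts, and ENSG00000277671, at 2.65, lie between ENSG00000278996 and ENSG00000281383. Neither passed.

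Protein-coding genes of rRNA synthesis passed more often on the negative side. Of 57 such genes in 5 lists, 55 were analysed here, and 5 of them passed on the positive and 40 on the negative side. Their median log2 fold change by the authors' deposited table was -0.45. Most of them have a mean normalized count of 1000 or more, and of all 5706 genes at that level, 1896 passed on the positive and 2855 on the negative side. Under the 4 scalings the lists had 39 to 45 genes on the negative side. The lists were drawn up with earlier results of these data known.

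The counts per list stand beside 20.9% of all genes on the positive and 21.5% on the negative side. Among the 5706 genes with a mean normalized count of at least 1000, 1896 were positive and 2855 negative. With so few genes in each list, its count is not read as a result of that list. Of the 13 subunits of RNA polymerase I, 1 passed on the positive and 9 on the negative side. In the authors' deposited table, the subunits shared with other polymerases POLR2K (-1.03, SE 0.09) and POLR2E (-0.75, SE 0.07) had the smallest adjusted p-values, followed by POLR1D (-0.53, SE 0.09), which polymerase III also uses, and by POLR1H (0.76, SE 0.13), the positive one. Initiation and termination factors were divided, with 2 of 8 positive and 4 negative. CAVIN1, which acts in transcript release and also builds caveolae, had the value -1.20 (SE 0.06) in the authors' deposited table. The subunits of the promoter selectivity factor SL1 were split: in the authors' deposited table, TAF1D at 0.96 (SE 0.09) and TAF1C at 0.52 (SE 0.10) were positive, and TAF1B at -0.51 (SE 0.09) was negative. The remaining SL1 subunits, TAF1A at -0.54 and TBP at -0.29 in the authors' deposited table, also passed on the negative side (adjusted p by DESeq2 = 0.00875 for TAF1A and 0.00265 for TBP). UBTF, the factor that marks active repeats, did not pass in the authors' deposited table (0.23, SE 0.21, adjusted p by DESeq2 = 0.412).

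Regulators of ribosomal DNA chromatin had 0 of 10 on the positive and 8 on the negative side. The same background holds for this list and the next 2, with 1896 positive and 2855 negative among the 5706 abundant genes. They include both silencing factors and activators. In the authors' deposited table, the deacetylase gene SIRT7, known as an activator of polymerase I, lay at -1.37 (SE 0.08), and the demethylase gene PHF8, also an activator, at -0.60 (SE 0.07). SIRT1 (-1.08, SE 0.09) and BAZ2A (-0.68, SE 0.06), which take part in silencing, were negative as well in the authors' deposited table. Of the genes that cut and trim the precursor, 0 of 16 passed on the positive and 14 on the negative side. ISG20L2 (-1.26, SE 0.08), an exonuclease of 5.8S maturation, BYSL (-1.02, SE 0.07), RCL1 (-1.05, SE 0.08) and UTP20 (-1.13, SE 0.09), which serve the 18S rRNA, led them in the authors' deposited table. Box C/D core and nucleolar proteins had 2 of 8 positive and 5 negative. NOP58, a core protein of the RNPs that methylate rRNA, was positive at 1.71 (SE 0.08) in the authors' deposited table, whereas TCOF1 (-0.73, SE 0.06), NPM1 (-0.45, SE 0.06) and NCL (-0.45, SE 0.06) were negative.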

How the data were processed

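Total RNA of 6 libraries in 2 groups of 3 was sequenced, and a single table of 1 comparison was analysed. fastp 0.23.2, STAR 2.7.10a, featureCounts and DESeq2 on hg38 are named per the submitters' processing notes. The mean normalized count is a signal (a scaled count averaged over libraries) that the authors deposited. Per the file headers, the fold change and SE are taken as log2 values, although the base is not stated there. The authors also deposited the Wald statistic, a score, and each gene's p-value with its adjusted p-value. Total counts per library are unknown. The labels' protocols name the preparation RIP-seq although the molecule is total RNA.

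The table has 25289 rows, and 2 repeated symbols left 25287 genes. The deposited adjusted p was checked against a Benjamini-Hochberg adjustment and differed by at most 1.39e-15. The plan provided for a count model if counts per library were given. They were not analysed here, so no test of a gene was made anew. Intervals are the fold change plus or minus 1.96 SE. Counts on each side were computed from mean and fold change with equal group sizes. Scaling alternatives add 1 constant to all fold changes, keep the SE and adjust over all genes. On simulated data, the shift for equal totals was checked against known totals, and calls were checked only for the median scaling. That simulation changed a small part of the genes, with both directions equally likely, unlike these data. It therefore does not test the calls under the scalings used here. Coordinates and transcripts come from GENCODE release 29 and RefSeq (GRCh38.p14), and release 29 may not be the annotation that was counted. Stretches of 50 bases were searched on both strands of 206694 transcripts.

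The members and lists were chosen with earlier results of these data known. Named genes are the 3 members, the 5 next most abundant genes, rRNA-named rows, short-arm rows of chromosome 21 (given mostly as counts) and up to 4 genes per list by adjusted p. EEF1A1, ALDH18A1, RPL41, MT-CO2, UBTF, TAF1A, TBP and the marker genes are context chosen otherwise. The tools were pandas 2.3.3, numpy 2.4.6 and scipy 1.17.1 under Python 3.11.15.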

Additional observations from a re-analysis of the deposited data

How the results depend on the processing

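The share of 18.2% held by the 3 genes was 18.2% over genes with a mean normalized count of at least 10 (18.1738). It was 18.5% without the other rRNA rows and 20.9% without the mitochondrial genome. Each setting only takes other genes out of the total, so the share could only rise. Each value lies outside the counting interval, which treats normalized means as counts, is narrow and covers counting error only. No conclusion is drawn from that. ENSG00000280441 passed the threshold at -0.43 with equal totals, at -0.53 with equal totals without the 3 genes and at -0.34 with the mitochondrial genome left out as well. ENSG00000278996 passed at -0.43, -0.53 and -0.34 under the same scalings. Both did not pass as deposited or with the median of genes whose mean count reaches 100 at 0. These scalings shift all fold changes by a constant, which by construction causes the change. ENSG00000281383 kept its direction and its side of the threshold under all 4. The number of genes past the threshold, 10718, ranged from 9139 (adjusted p under 0.01) to 11073 (equal totals without the 3 genes). No fold change of the 3 genes changed sign. No paired analysis was possible because no value per library was analysed here. For the same reason, leaving out a library and a model of counts per library were not run, so the spread behind each SE cannot be traced to a library. Reads that match several repeats, and a count at gene or exon level, could change each member's count; neither was tested.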
